A study of Rattus norvegicus with 6 samples.

Results

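SNARE genes were examined in LPS-stimulated primary rat microglia, with 10 genes selected by name. They were Snap25, Snap23 and Snap29 of the SNAP-25 family, the vesicle-associated membrane protein genes Vamp2, Vamp3, Vamp7 and Vamp8, and the syntaxin genes Stx3, Stx4 and Stx11. Of these 10 genes, 9 were found among the 23139 genes of the count tables, and counts of Snap23 were not analysed here. The genes had been picked with the difference between LPS + Siponimod and LPS + DMSO in these same libraries already known. Their values in that comparison are therefore given as a description, and no test of them was read.

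Microglia were obtained from cortices of Wistar rats at postnatal day 1, shaken off mixed glial cultures and purified with magnetic beads against CD11b/c. All 6 libraries received 100 ng/mL of lipopolysaccharide (LPS), a bacterial surface molecule that drives microglia into an inflammatory state. The LPS + DMSO group (n = 3) received the solvent in addition, and the LPS + Siponimod group (n = 3) received 50 µM siponimod, a modulator of sphingosine-1-phosphate receptors. The comparison asked how siponimod changed the transcriptome of microglia that were activated at the same time, and cells without LPS were not analysed here. The replicates are described as biological, but the cultures or litters behind them are not named, so that the spread between libraries may in part be technical. Total counts were 39484979, 38301365 and 38080379 in LPS + DMSO 1, 2 and 3, and 46643859, 43336006 and 38857441 in LPS + Siponimod 1, 2 and 3. Levels are given as raw counts or as CPM (counts relative to the TMM-corrected library size). A single count corresponded to between 0.0215 and 0.0270 CPM, and 3 counts in a library were taken as the floor of detection, which covers counting error only. Differences are given as the log2 fold change (log2 FC) of LPS + Siponimod against LPS + DMSO. A gene counted as called when its p, adjusted over all genes tested, did not exceed 0.05 and its fold change reached 1.5. Of the 11977 genes tested, 25.3% were called.

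SNARE proteins drive the fusion of transport vesicles with their target membrane. A vesicle SNARE (mostly of the VAMP family) zips up with a syntaxin and with helices from a SNAP-25 family protein or from further SNAREs, and the ATPase NSF takes the used complex apart again. SNAP-25 is known as the partner of a syntaxin and VAMP2 at the synapse and in neuroendocrine cells, whereas its relative SNAP-23 serves this function in most other cells. In macrophages and microglia, SNAREs carry cytokines to the cell surface, feed membrane to phagosomes, and fuse late endosomes and autophagosomes with lysosomes.

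Promoter sequences of Snap29, Vamp8 and Stx11 are shown because these genes differ in the direction or size of their values. They run 5′ to 3′ on the strand of the gene, from 250 bases before to 50 bases after the annotated start, and come from a table of RefSeq promoters (build GRCr8), in which 7 of the 10 genes were matched. Snap29 lies at chr11:97113146-97113445 (minus strand), Vamp8 at chr4:106005593-106005892 (minus strand) and Stx11 at chr1:9140170-9140469 (minus strand). Capitals mark the letters CACGTG, an E-box, which is the core of elements bound by factors for lysosome and autophagy genes.
Snap29: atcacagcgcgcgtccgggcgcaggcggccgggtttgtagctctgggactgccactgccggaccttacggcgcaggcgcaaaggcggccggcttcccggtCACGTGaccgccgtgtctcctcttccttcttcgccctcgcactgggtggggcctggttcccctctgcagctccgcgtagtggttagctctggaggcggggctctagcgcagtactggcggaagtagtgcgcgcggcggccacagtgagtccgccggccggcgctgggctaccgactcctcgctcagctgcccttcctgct
Vamp8: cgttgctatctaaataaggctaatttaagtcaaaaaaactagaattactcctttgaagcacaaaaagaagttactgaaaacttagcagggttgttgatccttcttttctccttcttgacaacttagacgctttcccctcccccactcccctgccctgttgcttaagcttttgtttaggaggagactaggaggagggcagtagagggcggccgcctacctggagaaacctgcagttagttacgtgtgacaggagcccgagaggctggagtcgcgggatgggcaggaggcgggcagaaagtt
Stx11: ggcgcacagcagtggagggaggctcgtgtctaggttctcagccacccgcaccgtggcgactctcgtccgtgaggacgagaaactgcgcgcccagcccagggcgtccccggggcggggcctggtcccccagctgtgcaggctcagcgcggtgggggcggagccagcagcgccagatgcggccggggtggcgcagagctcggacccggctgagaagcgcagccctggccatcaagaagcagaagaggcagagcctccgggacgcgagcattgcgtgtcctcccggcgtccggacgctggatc

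Both strands of the 7 promoters were searched for the E-box CACGTG, for the cAMP response element TGACGTCA and for the C/EBP-ATF element TGATGCAA. These were the promoters of Snap23, Snap29, Vamp2, Vamp8, Stx3, Stx4 and Stx11. Snap25, Vamp3 and Vamp7 were not matched, so that their promoters were not searched. Among the 7, the E-box was found in the Snap29 promoter only, starting 150 bases before the start site, and it was found in 2148 of 33469 rat promoters of the same length (6.42%). TGACGTCA (1.83% of promoters) and TGATGCAA (0.795%) were not among the letters of the 7 windows. A match is a description of these letters and was not tested for binding or activity.

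The identity of the cells was checked with marker lists. All 16 genes of the list for microglia and macrophages passed the filter on low counts, and their summed level was 12017, 9771 and 6663 CPM in LPS + DMSO 1, 2 and 3 and 5161, 6470 and 3742 CPM in LPS + Siponimod 1, 2 and 3. Csf1r, which encodes the receptor for colony-stimulating factor 1 that microglia need to survive, held 20.0% of the list. Homeostatic markers were low, with 69, 202 and 35 counts of Cx3cr1 in LPS + DMSO and 3, 21 and 4 in LPS + Siponimod. The libraries numbered 3 in both groups stood apart by genes of other brain cells. Gap43, which encodes a growth cone protein of neurons, had 3, 1 and 503 counts in LPS + DMSO 1, 2 and 3 and 1, 0 and 204 in LPS + Siponimod 1, 2 and 3. Olig1, a transcription factor gene of oligodendrocyte precursors, had 1, 5 and 515 counts and 2, 3 and 17 counts in the same order. The count of each library is therefore given for genes that rest on them, and fitted values also without them where they could be fitted.

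**Figure D1:**
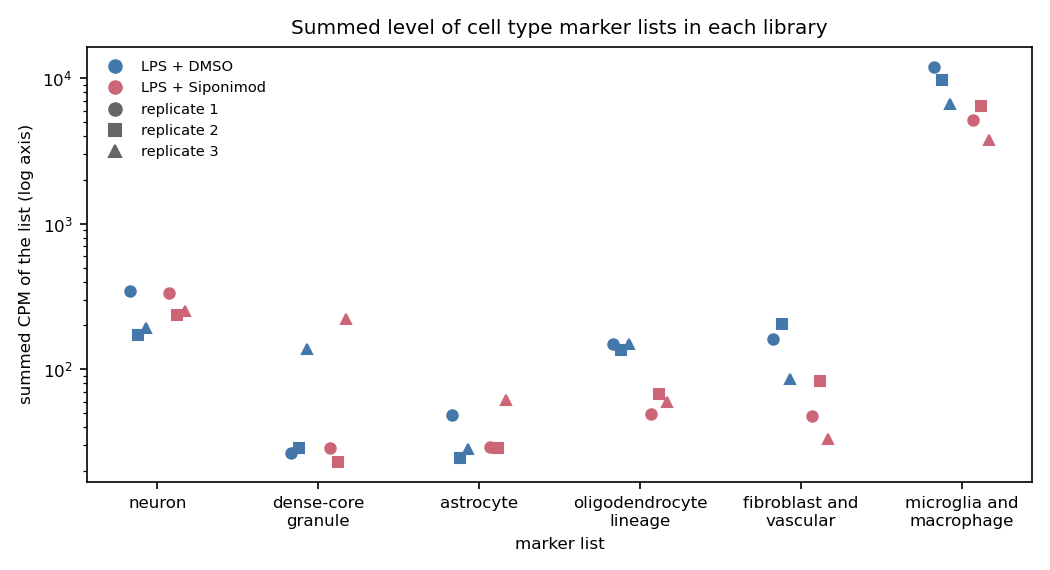
Summed CPM (log axis) of 6 lists of cell type markers, with 1 point per library, colours for LPS + DMSO and LPS + Siponimod and marker shapes for the replicate number. The dense-core granule list stood at 138 and 220 CPM in the libraries numbered 3 and between 23.1 and 28.9 CPM in the other 4, while the microglia list was highest in LPS + DMSO 1.

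Snap25 was close to absent with LPS + DMSO and was present in every library with LPS + Siponimod. It had 0, 1 and 1 counts in LPS + DMSO 1, 2 and 3, each under the floor of 3 counts, and 94, 153 and 81 counts in LPS + Siponimod 1, 2 and 3. In CPM this was 0.0176 ± 0.0153 against 2.48 ± 0.825 (SD, n = 3 each). The groups were far apart, and the highest LPS + DMSO library held 1 count where the lowest LPS + Siponimod library held 81. With 2 counts in one group and 328 in the other, the ratio was 140.0 at equal depth, with a 95% exact (Clopper-Pearson) interval from 38.4 to 1160.5 that covers counting error only. A fitted fold change depends on the prior count at such levels and is not given. Snap25 passed the filter on low counts through the LPS + Siponimod libraries alone. In bulk RNA, a transcript made by a few cells and one made at a low level by many cannot be told apart.

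Markers of neurons, summed without Eno2, were highest in the libraries numbered 3 of both groups, unlike Snap25. Of the 24 genes in the neuron list, 5 passed the filter on low counts and Eno2, an enolase gene that other cells also use, held 93.4% of the summed CPM. Without Eno2, the remaining 23 genes summed to 460, 319 and 1240 counts in LPS + DMSO 1, 2 and 3 and to 255, 421 and 1327 counts in LPS + Siponimod 1, 2 and 3. LPS + DMSO 3, with 1 count of Snap25, thus had nearly the highest sum of neuron markers. LPS + Siponimod 1, with 94 counts of Snap25, had the smallest sum, but that rank rested on Syn1. Syn1 gave 287, 207 and 50 of these counts in LPS + DMSO 1, 2 and 3. In LPS + Siponimod 1, 2 and 3 it gave 17, 108 and 20. In raw counts without Syn1, each LPS + Siponimod library was above its same-numbered LPS + DMSO library. In CPM this did not hold for the libraries numbered 3. The order in raw counts rested on Tubb3, whose counts are given below. In raw counts without Syn1 and Tubb3, each LPS + Siponimod library was below its same-numbered LPS + DMSO library. The neuronal nuclear protein gene Rbfox3 was at 0 in LPS + Siponimod 1 and 2, as were Dcx, Elavl4, Gad1, Gad2, Ina, Nefl, Syn2 and Slc17a6. In LPS + DMSO 1 and 2 each of these genes was likewise at 0 or 1 count. The whole list summed to 343, 172 and 192 CPM in LPS + DMSO and to 334, 237 and 253 CPM in LPS + Siponimod. Within the list 1 gene was called lower and 0 higher, against 11.7% lower and 13.6% higher over all genes tested. The gene called lower was the neurofilament gene Nefh, with 26, 12 and 28 counts in LPS + DMSO and 8, 3 and 4 in LPS + Siponimod. It passed the filter through the LPS + DMSO libraries alone, so that nothing is read from its call, which did not hold in any of the 6 fits that left out 1 library. Tubb3, a tubulin gene typical of neurons, had 61, 35 and 239 counts in LPS + DMSO and 202, 256 and 480 in LPS + Siponimod (log2 FC 1.28, SE 0.78, adjusted p = 0.251, edgeR quasi-likelihood test). It was called with the replicate number as a block (log2 FC 1.59, adjusted p = 0.0316), without LPS + DMSO 3 (log2 FC 2.51, adjusted p = 0.0277) and without both libraries numbered 3 (log2 FC 1.98, adjusted p = 0.0406).

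**Figure D2:**
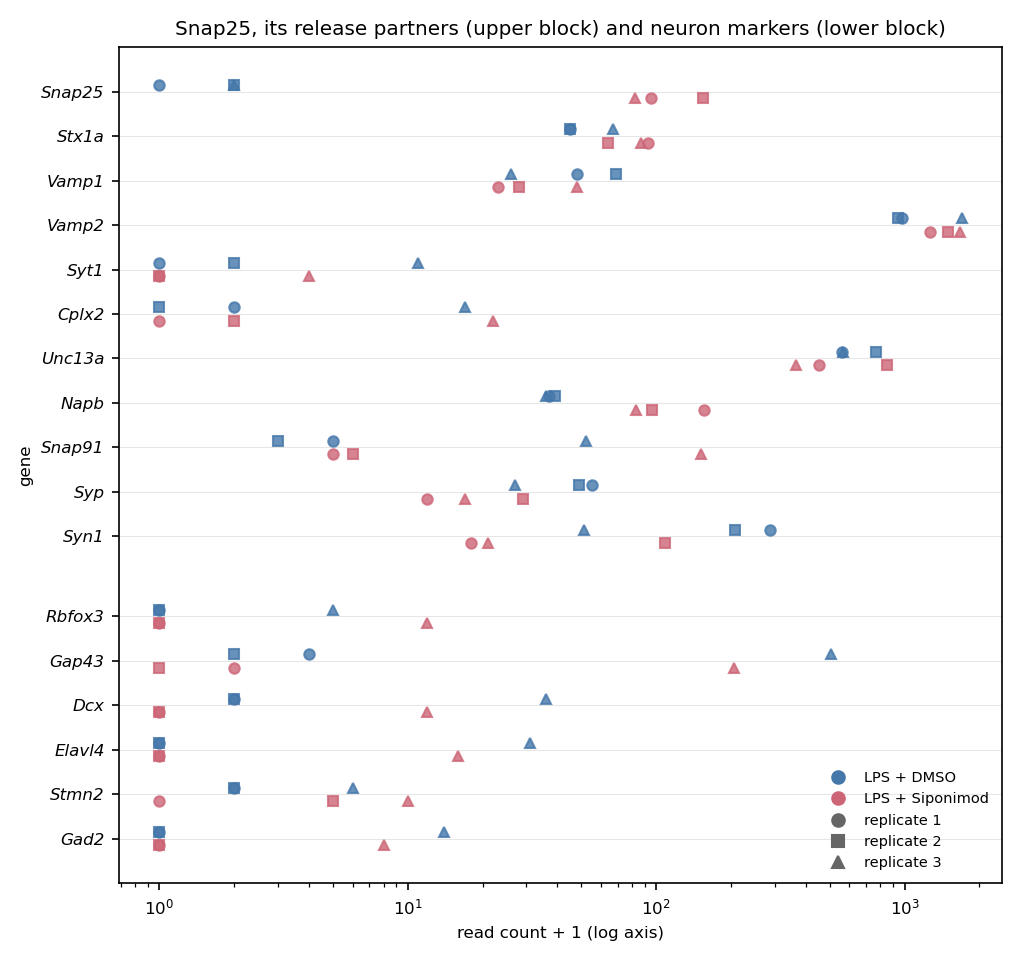
Read counts plus 1 (log axis) of Snap25, 10 genes of synaptic release and nerve endings, and 6 neuron markers, with 1 point per library. Of the 10 genes, Snap91, Syp and Syn1 also belong to the neuron list. Snap25 separated the groups in all 3 pairs of libraries, whereas Cplx2, Snap91 and the neuron markers were raised in the libraries numbered 3 of both groups. Syt1 was above the floor in LPS + DMSO 3 only, with 10 counts, and stood at the floor of 3 counts in LPS + Siponimod 3.

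Genes that work with Snap25 in synaptic release were called in both directions, with Napb and Unc13b higher and Nsf, Sv2a and Rab3a lower. Of the 6 fits that left out 1 library, Nsf kept its call in 2, Napb, Unc13b and Rab3a in 1 each, and Sv2a in 0. All these genes were chosen with earlier results known. These 5 genes belong to the lists of regulators and of granule genes, of which 23 of 27 and 5 of 8 tested members were not called, where 13.6% of all genes tested were called higher and 11.7% lower. Stx1a, the syntaxin of the synaptic membrane, had 44, 44 and 66 counts with LPS + DMSO and 92, 63 and 86 with LPS + Siponimod (log2 FC 0.42, SE 0.33, adjusted p = 0.36, edgeR quasi-likelihood test), and its groups overlapped in CPM. Vamp1, a synaptic vesicle SNARE gene, had 47, 68 and 25 against 22, 27 and 47 counts (log2 FC -0.74, SE 0.52, adjusted p = 0.312). The calcium sensor gene of synaptic vesicles, Syt1, was not tested, with 0, 1 and 10 counts against 0, 0 and 3. The complexin gene Cplx2 had 1, 0 and 16 counts against 0, 1 and 21, and Cplx1 was not analysed here. Neither Syt1 nor Cplx2 was above the floor in LPS + Siponimod 1 or 2, where Snap25 had 94 and 153 counts.

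Among the other partners, Napb, which encodes the brain form of the adaptor that recruits NSF to used SNARE complexes, rose from 36, 38 and 35 counts to 155, 95 and 82 counts (log2 FC 1.36, SE 0.31, adjusted p = 0.0255, edgeR quasi-likelihood test). Unc13a, which primes synaptic vesicles, had 560, 764 and 564 against 453, 849 and 364 counts and was not called (log2 FC -0.41, SE 0.32, adjusted p = 0.365), except without LPS + Siponimod 2 (log2 FC -0.85, adjusted p = 0.0388). The synaptic vesicle genes Syp (log2 FC -1.43, SE 0.50, adjusted p = 0.0758) and Syn1 (log2 FC -2.14, SE 0.94, adjusted p = 0.131) had negative values and were not called. Syp was called lower without LPS + DMSO 3 (log2 FC -1.68, adjusted p = 0.0488) and Syn1 without LPS + Siponimod 2 (log2 FC -3.50, adjusted p = 0.0428), and DESeq2 called both (adjusted p = 0.0422 and 0.0426). Syn1 had 287, 207 and 50 counts with LPS + DMSO and 17, 108 and 20 with LPS + Siponimod, and the groups overlapped. Snap91, a clathrin adaptor gene of nerve endings, had 4, 2 and 51 against 4, 5 and 150 counts and was high in the libraries numbered 3.

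Genes of dense-core granules, the organelles for regulated secretion in neuroendocrine cells, were set beside Snap25 as well. Of 19 genes, 8 were tested, 1 was called higher and 2 were called lower, against 13.6% and 11.7% of all genes tested. Pcsk1, a prohormone convertase gene, had 0, 0 and 7 counts with LPS + DMSO and 61, 38 and 44 with LPS + Siponimod, and it passed the filter through the LPS + Siponimod libraries alone, so that nothing is read from its call. The vesicle glycoprotein gene Sv2a fell from 471, 745 and 1134 to 107, 222 and 328 counts (log2 FC -2.03, SE 0.53, adjusted p = 0.0344, edgeR quasi-likelihood test), and the vesicle GTPase gene Rab3a fell from 148, 104 and 53 to 31, 50 and 31 counts (log2 FC -1.67, SE 0.46, adjusted p = 0.0404). With 1 library left out, Sv2a was not called in any of the 6 fits and Rab3a was called in the fit without LPS + DMSO 3 alone, and the largest adjusted p was 0.101 for Sv2a and 0.162 for Rab3a. The granule genes Scg2 (3, 6 and 1101 against 9, 24 and 2565 counts) and Syt4 (6, 0 and 108 against 16, 10 and 2484 counts) were carried by the libraries numbered 3. Without LPS + Siponimod 3 their log2 FC was -4.76 and -1.83, without LPS + DMSO 3 it was 7.45 and 7.96, and without both libraries neither passed the filter. Ptprn held 22.7% of the list and had 109, 23 and 454 against 818, 360 and 2627 counts (log2 FC 2.51, SE 1.19, adjusted p = 0.157), and without both libraries numbered 3 it was not called (log2 FC 2.86, adjusted p = 0.074). Its log2 FC was 1.29 without LPS + Siponimod 3 and 4.09 without LPS + DMSO 3. None of the 6 fits that left out 1 library called Ptprn (largest adjusted p = 0.453). Ptprn was called with the replicate number as a block (log2 FC 2.82, adjusted p = 0.00637), as were Scg2 (adjusted p = 0.0133) and Cpe, against 17.7% of all genes tested that were called higher in that fit.

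The values of the chosen SNARE genes lay on both sides of 0. Among the 11977 genes tested, 25.3% were called (edgeR quasi-likelihood test), 13.6% higher and 11.7% lower with LPS + Siponimod. Of the 9 genes, Snap25 was past these thresholds in the positive and Vamp8 in the negative direction, and the other 7 were not. Since the genes were chosen on this comparison, nothing is read from that number. The CPM of the groups did not overlap for 5 of the 9 genes, Snap25, Stx3 and Stx11 being higher and Vamp3 and Vamp8 lower with LPS + Siponimod, against 49.3% of all genes tested (25.3% higher and 24.0% lower). The median log2 FC was 0.07 over the 9 genes and -0.02 over all genes tested.

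**Figure D3:**
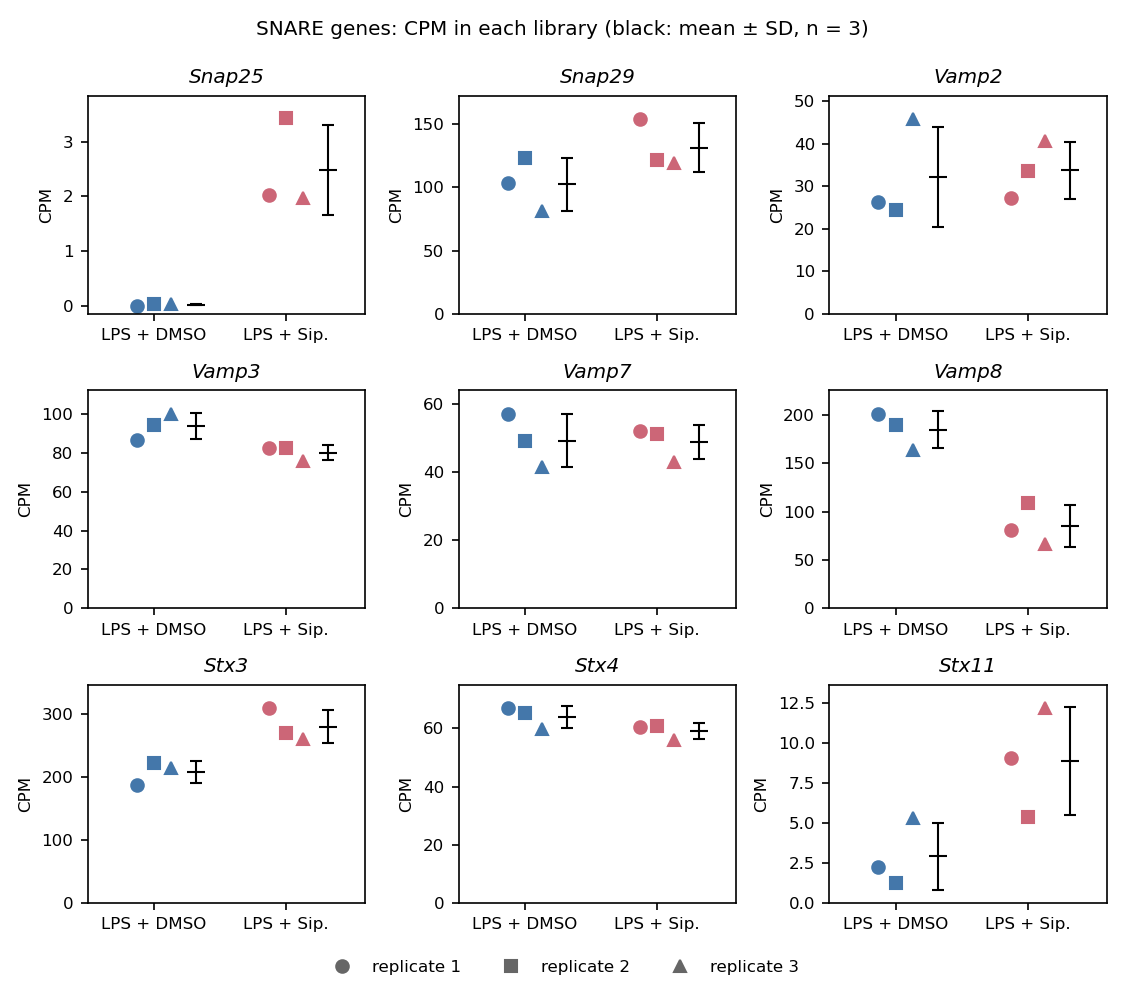
CPM of the 9 SNARE genes in each of the 6 libraries, with 1 panel and 1 linear axis per gene, marker shapes for the replicate number and a black bar for the mean ± SD (n = 3). Snap25, Stx3 and Stx11 lay higher and Vamp3 and Vamp8 lower with LPS + Siponimod in every library, while the points of the other 4 genes overlapped between the groups.

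Snap29 encodes the soluble member of the SNAP-25 family that serves the fusion of autophagosomes with lysosomes. It had 3823, 4740 and 3017 counts in LPS + DMSO 1, 2 and 3 and 7140, 5409 and 4885 counts in LPS + Siponimod 1, 2 and 3. At 102 ± 20.9 against 131 ± 19.4 CPM (SD, n = 3 each) the groups overlapped, because LPS + DMSO 2 (123 CPM) was above LPS + Siponimod 2 (121 CPM) and LPS + Siponimod 3 (119 CPM). The fitted log2 FC was 0.36 (SE 0.19).

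The R-SNARE genes, whose products mostly sit on vesicles, were led by Vamp8, which encodes a SNARE of late endosomes, autophagosome fusion and secretory granules. Vamp8 had 7467, 7300 and 6093 counts with LPS + DMSO and 3774, 4873 and 2720 counts with LPS + Siponimod. Its level was 185 ± 19.1 against 85.6 ± 21.7 CPM, so that the lowest LPS + DMSO library (164 CPM) stood well above the highest LPS + Siponimod library (109 CPM). The log2 FC was -1.11 (SE 0.21), with values of -1.31, -0.80 and -1.31 within the 3 same-numbered pairs.

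Vamp3, the cellubrevin gene, encodes a SNARE of recycling endosomes that helps deliver TNF to the forming phagosome in macrophages. It had 3207, 3640 and 3716 counts against 3831, 3672 and 3099 counts, that is 93.7 ± 6.77 against 80.1 ± 3.91 CPM (log2 FC -0.23, SE 0.11). The gap between the groups was narrow, from 86.5 CPM in LPS + DMSO 1 to 82.5 CPM in LPS + Siponimod 1. Vamp2, the synaptic vesicle partner of Snap25, had 979, 943 and 1701 counts with LPS + DMSO and 1263, 1498 and 1665 with LPS + Siponimod. Its groups overlapped (32.2 ± 11.8 against 33.8 ± 6.72 CPM, log2 FC 0.07, SE 0.28), and LPS + DMSO 3 was the highest of all 6 libraries. Vamp7, a SNARE gene of late endosomes and lysosomes, had 2114, 1891 and 1536 against 2415, 2279 and 1765 counts, and its means were nearly the same (49.2 ± 7.85 against 48.7 ± 4.91 CPM, log2 FC -0.01, SE 0.16). Over the fits tried, the log2 FC ran from -0.08 to 0.41 for Vamp2 and from -0.12 to 0.12 for Vamp7, so that no direction is given for either gene.

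The syntaxin genes code for the SNAREs of the target membrane. Stx11, which is defective in an inherited form of haemophagocytic lymphohistiocytosis and takes part in granule release by immune cells, had 82, 48 and 196 counts with LPS + DMSO and 422, 240 and 499 counts with LPS + Siponimod. Its level was 2.91 ± 2.10 against 8.88 ± 3.40 CPM (log2 FC 1.61, SE 0.58). The groups nearly touched, at 5.28 CPM in LPS + DMSO 3 and 5.38 CPM in LPS + Siponimod 2, although the difference within same-numbered pairs was 2.01, 2.07 and 1.20 on the log2 scale. Without LPS + DMSO 3 the log2 FC was 2.36, and without both libraries numbered 3 it was 2.07.

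Stx3, a syntaxin gene of plasma membrane and granules, had 6953, 8566 and 7924 counts against 14350, 12007 and 10652 counts. The levels were 208 ± 18.0 and 279 ± 26.1 CPM (log2 FC 0.43, SE 0.14), and the highest LPS + DMSO library (222 CPM) was below the lowest LPS + Siponimod library (260 CPM). Stx4, the plasma membrane partner of SNAP-23 and VAMP3 in macrophages, had 2481, 2521 and 2217 against 2812, 2714 and 2291 counts. At 64.0 ± 3.84 against 59.1 ± 2.77 CPM its groups overlapped (log2 FC -0.12, SE 0.10).

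The remaining SNARE genes, a list of 28 of which 25 were found, were not part of the selection and were tested. All 25 passed the filter on low counts, and 2 were called higher, 3 lower and 20 not called, against 13.6% and 11.7% of all genes. The median log2 FC was -0.08, compared with -0.02 over all genes tested. Bet1, which acts between endoplasmic reticulum and Golgi apparatus, rose from 643, 695 and 517 to 2515, 1663 and 1851 counts, or 16.4 ± 2.21 against 45.5 ± 8.44 CPM (SD, n = 3 each; log2 FC 1.47, SE 0.18, adjusted p = 0.00726, edgeR quasi-likelihood test). The lowest LPS + Siponimod library (37.3 CPM) was above the highest LPS + DMSO library (18.0 CPM), and the call held in all 6 fits that left out 1 library (largest adjusted p = 0.042). Stx5, the syntaxin that Bet1 pairs with, rose from 39.9 ± 7.24 to 68.7 ± 5.13 CPM (log2 FC 0.78, SE 0.16, adjusted p = 0.0197). The Golgi relative Bet1l had an adjusted p of 0.0477 with a log2 FC of 0.56, just under the fold threshold, and Ykt6 was not called (log2 FC -0.12, SE 0.15, adjusted p = 0.583). Without LPS + DMSO 3, Bet1l was called (log2 FC 0.69, adjusted p = 0.0261).

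Those called lower were Stx7, Stx12 and Stx17. Stx12, a syntaxin gene of recycling endosomes, fell from 7233, 9020 and 8809 to 5550, 6095 and 5126 counts (222 ± 23.4 against 127 ± 8.72 CPM, log2 FC -0.81, SE 0.14, adjusted p = 0.0118, edgeR quasi-likelihood test). Stx7, the late endosomal syntaxin that pairs with VAMP8, fell from 125 ± 9.82 to 68.1 ± 18.3 CPM (log2 FC -0.87, SE 0.22, adjusted p = 0.0332). Stx17, which joins SNAP-29 and VAMP8 on the autophagosome, fell from 444, 471 and 339 to 309, 357 and 217 counts (log2 FC -0.74, SE 0.22, adjusted p = 0.0498). In each of these 3 genes all LPS + Siponimod libraries were below all LPS + DMSO libraries. Stx2, a plasma membrane syntaxin gene, had a log2 FC of -0.88 (SE 0.39, adjusted p = 0.135) and was called with the replicate number as a block (adjusted p = 0.0104).

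With 1 library left out, the log2 FC stayed between 0.65 and 0.90 for Stx5, -0.88 and -0.75 for Stx12, -0.996 and -0.66 for Stx7 and -0.90 and -0.60 for Stx17, but calls were lost. Without LPS + DMSO 2, only 469 genes were called higher and 182 lower over all genes. Stx7 was not called in any of the 6 fits that left out 1 library (adjusted p between 0.0509 and 0.107, edgeR quasi-likelihood test). Without LPS + DMSO 2 the adjusted p was 0.0761 for Stx5, 0.0587 for Stx12 and 0.168 for Stx17. Without LPS + Siponimod 3 it was 0.0701 for Stx5, 0.054 for Stx12 and 0.137 for Stx17. Without LPS + Siponimod 1 it was 0.0894 for Stx5, 0.0636 for Stx12 and 0.157 for Stx17, and without LPS + DMSO 1 it was 0.13 for Stx17. With both libraries numbered 3 left out, Bet1, Stx5 and Bet1l were called higher and Stx7 lower, while the adjusted p was 0.0516 for Stx12 and 0.058 for Stx17. The direction of all 5 genes called was the same in every fit.

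**Figure D4:**
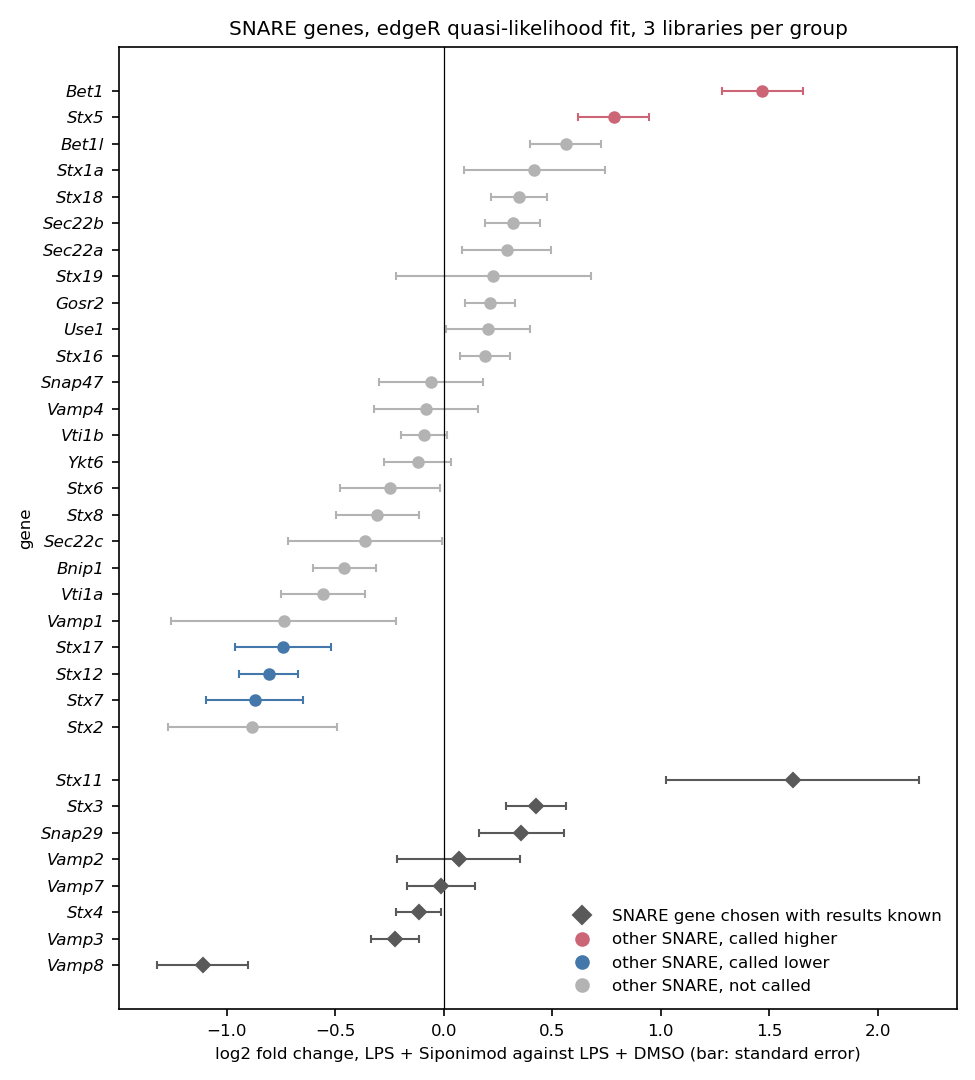
Log2 fold change of LPS + Siponimod against LPS + DMSO with its standard error for 25 SNARE genes outside the selection (circles, coloured where called) and for 8 chosen SNARE genes (diamonds). Bet1 and Stx5 were called higher and Stx7, Stx12 and Stx17 lower, and Snap25 is not drawn because its LPS + DMSO libraries were under the floor of 3 counts.

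Regulators of SNARE assembly were tested as a list of 47 genes, of which 46 were found and 27 passed the filter. Of these 27, 3 were called higher, 1 lower and 23 not called (median log2 FC -0.16), against 13.6% higher and 11.7% lower and a median of -0.02 over all genes tested. Txlng, which encodes a syntaxin-binding taxilin, rose from 249, 302 and 391 to 797, 665 and 778 counts, 8.36 ± 1.96 against 17.0 ± 2.04 CPM (log2 FC 1.02, SE 0.21, adjusted p = 0.0197, edgeR quasi-likelihood test). Napb is described above, and Unc13b, a vesicle priming gene, rose from 13, 28 and 18 to 79, 52 and 153 counts (log2 FC 2.07, SE 0.55, adjusted p = 0.0376). Rims2, an active-zone gene, had 27, 12 and 36 counts with LPS + DMSO and 176, 31 and 208 with LPS + Siponimod, values that overlapped, and it was not called (log2 FC 2.25, SE 0.79, adjusted p = 0.078). It was called higher with the replicate number as a block (adjusted p = 0.014), with DESeq2 (0.016) and without LPS + Siponimod 2 (0.0255). Nsf, the ATPase that takes SNARE complexes apart, fell from 2962, 3208 and 2485 to 2186, 2642 and 1784 counts, that is from 76.7 ± 8.66 to 49.9 ± 8.22 CPM (log2 FC -0.62, SE 0.16, adjusted p = 0.0349). Stxbp2 and Unc13d, whose products act with syntaxin-11 in granule release, were not called, with a log2 FC of -0.50 (SE 0.18, adjusted p = 0.082) and of -0.16 (SE 0.33, adjusted p = 0.729).

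With 1 library left out, Napb remained called only without LPS + DMSO 3, Unc13b only without LPS + Siponimod 2, and Nsf only without LPS + DMSO 3 or LPS + Siponimod 2. The largest adjusted p in these fits (edgeR quasi-likelihood test) was 0.136 for Napb without LPS + Siponimod 1, 0.115 for Unc13b without LPS + DMSO 1 and 0.142 for Nsf without LPS + Siponimod 1. Txlng was lost without LPS + DMSO 2 (adjusted p = 0.0792), LPS + Siponimod 1 (0.0781) or LPS + Siponimod 3 (0.0708). Without both libraries numbered 3, Txlng was the only regulator called. With the replicate number as a block, 6 regulators were called higher and 1 lower, against 17.7% and 16.4% of all genes tested in that fit. Doc2a, a calcium sensor gene of vesicle release, was singled out after its values were seen. It had 1, 0 and 0 counts with LPS + DMSO and 55, 9 and 40 with LPS + Siponimod, did not pass the filter, and had a ratio of 88.8 with a 95% exact interval from 15.6 to 3539 for counting error. It was called higher in the fits with no filter, without LPS + DMSO 3 and without LPS + Siponimod 2, where its LPS + DMSO libraries were still under the floor of 3 counts. Where a filter was used, Doc2a passed it through the LPS + Siponimod libraries alone, so that nothing is read from these calls.

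Tethering complexes hold a vesicle at its target before the SNAREs engage. Of 31 genes, all tested, 2 were called higher, 2 lower and 27 not called (median log2 FC -0.18), against the same 13.6%, 11.7% and -0.02 over all genes. Cog3, a subunit of the Golgi tether COG, rose from 759, 897 and 1075 to 2127, 1742 and 1888 counts, 24.2 ± 4.31 against 43.6 ± 3.98 CPM (log2 FC 0.85, SE 0.16, adjusted p = 0.0161, edgeR quasi-likelihood test), and Cog4, a subunit of the same complex, fell from 55.7 ± 5.38 to 34.8 ± 3.16 CPM (log2 FC -0.68, SE 0.13, adjusted p = 0.0148). Rint1, which tethers Golgi vesicles at the endoplasmic reticulum, rose (log2 FC 0.68, SE 0.16, adjusted p = 0.0276), and the exocyst gene Exoc4 fell (log2 FC -0.82, SE 0.23, adjusted p = 0.0422). Without LPS + DMSO 2 none of the 4 was called, the adjusted p being 0.0679 for Cog3, 0.0633 for Cog4, 0.0996 for Rint1 and 0.151 for Exoc4. Without LPS + Siponimod 1 these values were 0.0735, 0.0686, 0.108 and 0.153, and without LPS + Siponimod 3 they were 0.0646, 0.064, 0.0922 and 0.12. Without LPS + DMSO 1, Rint1 (0.0724) and Exoc4 (0.117) were not called, and Cog4 fell under the fold threshold with a log2 FC of -0.58.

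Lists for other cell types were read beside the SNARE genes. In the astrocyte list, 4 of 12 genes were tested, 0 were called higher and 1 was called lower, against the same 13.6% and 11.7% of all genes (Aldoc, log2 FC -1.12, SE 0.31, adjusted p = 0.0401, edgeR quasi-likelihood test), and Slc1a3, a glutamate transporter gene, held 83.4% of the list. Its sum was 48.4, 24.4 and 28.5 CPM with LPS + DMSO and 29.4, 28.9 and 61.2 CPM with LPS + Siponimod, and Gjb6 and Ntsr2 were at 0 in every library. In the oligodendrocyte list, 4 of 13 genes were tested, 1 was called higher and 1 lower, against the same shares of all genes. Mbp rose from 149, 161 and 84 to 470, 397 and 652 counts (log2 FC 1.74, SE 0.34, adjusted p = 0.0172, edgeR quasi-likelihood test) and Cnp, which held 85.0% of the list, fell from 129 ± 15.9 to 44.2 ± 11.5 CPM (log2 FC -1.55, SE 0.21, adjusted p = 0.00797). Without LPS + DMSO 2, LPS + Siponimod 1 or LPS + Siponimod 3 the adjusted p of Mbp was 0.0623, 0.0618 or 0.0554, and that of Aldoc reached 0.147 without LPS + Siponimod 1. The sum of this list was 150, 136 and 149 CPM against 49.3, 67.9 and 60.0 CPM.

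In the list for fibroblasts and vessels, 7 of 11 genes were tested, 1 was called higher and 0 lower, against 13.6% and 11.7% of all genes tested. That gene, the matrix proteoglycan gene Dcn, had 3, 0 and 4 counts with LPS + DMSO and 456, 49 and 178 with LPS + Siponimod, and it passed the filter through the LPS + Siponimod libraries alone, so that nothing is read from its call. The sum of the list was 160, 206 and 85.5 CPM with LPS + DMSO and 48.0, 82.5 and 32.9 CPM with LPS + Siponimod, with Cdh5 holding 62.4% of it and Kdr at 0 in every library. Dcn was not called without LPS + DMSO 1, LPS + DMSO 2 or LPS + Siponimod 1. Of the 16 microglial genes, 1 was called higher (Sall1, log2 FC 0.93, SE 0.26, adjusted p = 0.0433, edgeR quasi-likelihood test) and 3 lower, against 13.6% and 11.7% of all genes tested. Among those called lower were Itgam (log2 FC -0.87, SE 0.14, adjusted p = 0.0112) and Aif1 (log2 FC -1.88, SE 0.40, adjusted p = 0.0212), and the third was Cx3cr1. The LPS + DMSO libraries alone were enough for Cx3cr1 to pass the filter, and 1 LPS + Siponimod library was also above the cutoff. Nothing is therefore read from the call of Cx3cr1. With 1 library left out the adjusted p reached 0.0618 for Itgam and 0.0982 for Aif1, both without LPS + Siponimod 1, and it reached 0.138 for Sall1. Without both libraries numbered 3, none of these 4 genes was called, while C1qa, C1qb and C1qc, which encode the chains of complement C1q, were called lower. With the replicate number as a block, 8 microglial genes were called lower, against 16.4% of all genes tested in that fit, among them these 3 C1q genes and Csf1r (log2 FC -1.33, adjusted p = 0.0375), and 2 genes of the fibroblast and vessel list were called lower, among them Cdh5 (log2 FC -1.48, adjusted p = 0.0142). The part of any of these lists in the values of the SNARE genes was not tested.

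Over the 6 libraries, the 5 genes whose log2 CPM was most like that of Snap25 had Pearson correlations from 0.993 to 0.996. They were Mars1, which encodes the cytosolic methionyl-tRNA synthetase, Ppp1r15b, a subunit of the phosphatase for the translation factor eIF2α, Ddit4l, a relative of the mTOR inhibitor Ddit4, the glypican gene Gpc2, and Pck2, the mitochondrial phosphoenolpyruvate carboxykinase gene. The libraries fall into 2 groups, and any gene that separates the groups evenly is close to Snap25 by this measure. Mars1 had 3075, 3603 and 3286 counts with LPS + DMSO and 7867, 8749 and 7635 with LPS + Siponimod, while Ddit4l, like Snap25, was at the floor with LPS + DMSO (0, 0 and 0 counts against 31, 60 and 39). Among the SNARE genes, regulators and tethers, Cog1, a subunit of the COG tether, had the highest correlation (0.957, rank 323 of the 11977 genes tested) and Bet1 the next (0.937, rank 608).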

How the data were processed

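The authors trimmed single-end reads in the CLC Genomics Workbench, mapped them to the rat genome (mRatBN7.2) and deposited raw total counts per gene, 1 table per library. Submitters' notes name bcl2fastq (version 2.20.0.422). How strand and multiply matching reads were handled is not given in the sources used here, so that values of overlapping or near-identical genes are uncertain. In 1 table, 1 row without a name was left out.

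The analysis ran under R (version 4.3.3). It used edgeR (version 4.0.16) with TMM factors, filterByExpr (minimum count 10, minimum total 15) and the quasi-likelihood test with condition as the only term. P-values were Benjamini-Hochberg adjusted over 11977 genes. Called genes had an adjusted p up to 0.05 and changed 1.5-fold or more. The log2 FC is LPS + Siponimod against LPS + DMSO, with an SE derived from the F statistic (absolute log2 FC over root F). Pair differences and correlations used log2 CPM with a prior count of 2. The procedure was tested on simulated data. There edgeR missed a first mark for the share of changed genes recovered, the mark was then reset to large changes after that output was seen, and DESeq2 recovered more genes but made many more false calls.

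Alternatives were RLE factors, DESeq2 (version 1.42.0), no filter, the replicate block and each library left out. Deviations of same-numbered libraries from their group means correlated over genes at 0.42, 0.545 and 0.611, and the numbers were taken to pair the libraries on that evidence. The test without the block was nevertheless kept as the main one, as planned, and the blocked value is given where it changes a call. Without both libraries numbered 3 was added after the data were seen.

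Named were the 10 genes, a set of Snap25 partners and other synaptic genes, and the 5 genes most like Snap25. Also named were up to 4 called genes per direction of each machinery list (2 of each marker list) with the smallest adjusted p. The gene with the highest CPM of each marker list was named as well. Bet1l, Ykt6, Stx2, Stxbp2, Unc13d, Rims2, Doc2a, Cog1, single marker genes shown for their counts and the motifs were chosen after values were seen. The 10 genes and all lists were chosen with earlier results of these data known. Some genes of these lists are not reported here and stay out of the lists' counts and of the plots, but remained in the fit.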

Additional observations from a re-analysis of the deposited data

How the results depend on the processing

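Depth was similar in all libraries, and genes of few counts such as Snap25 partners at the floor could not be compared. Of the 9 SNARE genes, all but Vamp2 and Vamp7 had the same sign of the log2 FC in each of the 12 fits. Over all genes, leaving out 1 library gave between 469 (LPS + DMSO 2) and 1941 (LPS + DMSO 3) genes called higher and between 182 and 1772 called lower by the same libraries, which leaves fewer samples in the fit. The replicate block called 2114 higher and 1960 lower, and without both libraries numbered 3 the numbers were 1335 and 983.

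Number of genes called, by setting, was as follows, and the causes of these shifts were not tested. With 1 library left out, the chosen SNARE genes past the thresholds ranged from 1 to 2 higher and 0 to 1 lower, other SNAREs from 1 to 3 and 0 to 2, regulators from 0 to 4 and 0 to 2, tethers from 0 to 3 and 0 to 3, neuron markers from 0 to 1 and 0 to 1, granule genes from 0 to 1 and 0 to 1, oligodendrocyte genes from 0 to 1 and 1 to 1, fibroblast and vascular genes from 0 to 1 and 0 to 2, microglial genes from 0 to 1 and 0 to 7, and astrocyte genes called lower from 0 to 1. With the replicate block, 2 chosen SNARE genes, 6 regulators, 1 neuron marker and 4 granule genes (Pcsk1 among them) were higher, and 2 vascular and 8 microglial genes were lower. Beside the calls given in the report, the block put Stx11 past the thresholds, from which nothing is read, called Syt4 (adjusted p = 0.0188), Cdh5 (0.0142), Csf1r (0.0375) and P2ry12 (0.0226) and lost Sall1 (0.0553, edgeR quasi-likelihood test). It changed no other call of a gene named in the report. With DESeq2, 2 chosen SNARE genes, 2 granule genes and 2 microglial genes were higher, and 2 regulators, 3 neuron markers, 3 vascular genes and 8 microglial genes were lower. With no filter, 0 granule and 0 microglial genes were higher, and 0 regulators, 1 tether, 0 neuron markers, 1 granule gene and 0 astrocyte genes were lower. Doc2a was then called higher, and Stx17, Nsf, Unc13b, Exoc4, Nefh, Pcsk1, Rab3a, Aldoc, Cx3cr1 and Sall1 were not called. Without both libraries numbered 3, 2 chosen SNARE genes, 1 regulator, 1 tether, 1 neuron marker, 0 vascular genes and 0 microglial genes were higher, and 1 other SNARE, 0 regulators, 0 neuron markers, 0 astrocyte genes and 1 vascular gene were lower. RLE factors called C1qc lower and changed no other call of named genes.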
